A study of Danio rerio with 4 samples.

Results

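The 8 genes described here belong to the defence against peroxides and superoxide in zebrafish cells. They are the glutathione peroxidases gpx1a, gpx1b and gpx4a, the glutathione-making gclc, the thioredoxin txnb, the peroxiredoxins prdx1 and prdx2, and the superoxide dismutase sod2. They were taken by symbol from the array's annotation, which gave 10 probe sets for 8 genes, out of 8793 genes on the array. The gene prdx1 had 3 probe sets and each of the others had 1. No probe set annotated to several genes named one of the 8, and none of the 10 carried a suffix (_s_at or _x_at) that marks probes shared with transcripts of other genes. The probe set that stands for prdx1 ends in _a_at, which marks probes shared by several transcripts of the same gene.

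The zSP group is the Hoechst-dim side population and the zMP group the main population of the same lymphoid scatter gate (low forward and side scatter) in adult zebrafish kidney, the blood-forming organ of this fish. Hoechst stains DNA, and cells with active efflux pumps stay dim. Per the labels, 20 fish went into 3 sorts, each population's lysates were combined, and each RNA was divided between 2 arrays. Each population is thus 1 pool, its arrays repeat the amplification and hybridization of the same RNA, and no test between the populations is possible. The labels name no strain, and give the age of the fish as adult only.

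Cells make hydrogen peroxide from superoxide, which leaks from mitochondria and is produced on purpose by phagocyte oxidases. Superoxide dismutases carry out this step, and glutathione peroxidases, peroxiredoxins and catalase then reduce the peroxide to water. Glutathione peroxidases draw their electrons from glutathione and peroxiredoxins from thioredoxin, and both carriers are recharged by NADPH. In mouse, low levels of reactive oxygen are a known property of quiescent blood stem cells, which the side population sort is used to enrich.

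Values are log2 expression, and a difference is the zSP mean minus the zMP mean, so that 1 stands for 2-fold. The range given with a difference spans the 4 pairs of a zSP and a zMP array and covers technical error alone. A gene was called when all 4 pairs differed by at least 1 in the same direction. Over all 8793 genes the share called towards zSP was 7.85%, and the share called towards zMP was 2.89%. Where a call without 1 array is given below, only 2 pairs had to pass, a looser rule. Under it 11.1% to 12.4% of all genes were called towards zSP and 6.05% to 6.7% towards zMP. The blank range is that of 49 control probe sets for sequences that zebrafish cells do not transcribe. A mean up to its top, 6.15, was treated as not told apart from background. The EGFP control set that top, and without it the top was 5.24. A mean between 5.24 and 6.15 thus lies within the range through that control alone.

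All 8 genes were called, 5 towards zSP and 3 towards zMP. The genes gpx1b, txnb, gpx4a, gclc and prdx1 were higher in zSP, and gpx1a, sod2 and prdx2 were higher in zMP. Since these genes were chosen with earlier results of the same arrays known, the share called is a description and is not evidence set against the 10.7% of all genes called in either direction. Their median difference was 1.67, with medians of 1.42 to 1.87 for the 4 pairs of arrays, against -0.20 (-0.23 to -0.18) for all genes. The members ran both ways, so this median describes neither side. At a size of 3-fold in place of 2-fold, 3 of the 8 were still called towards zSP, beside 4.5% of all genes, and 1 towards zMP, beside 0.694%. In RNA from a pool of cells, a larger share of cells with a transcript and more of it per cell cannot be told apart.

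**Figure D1:**
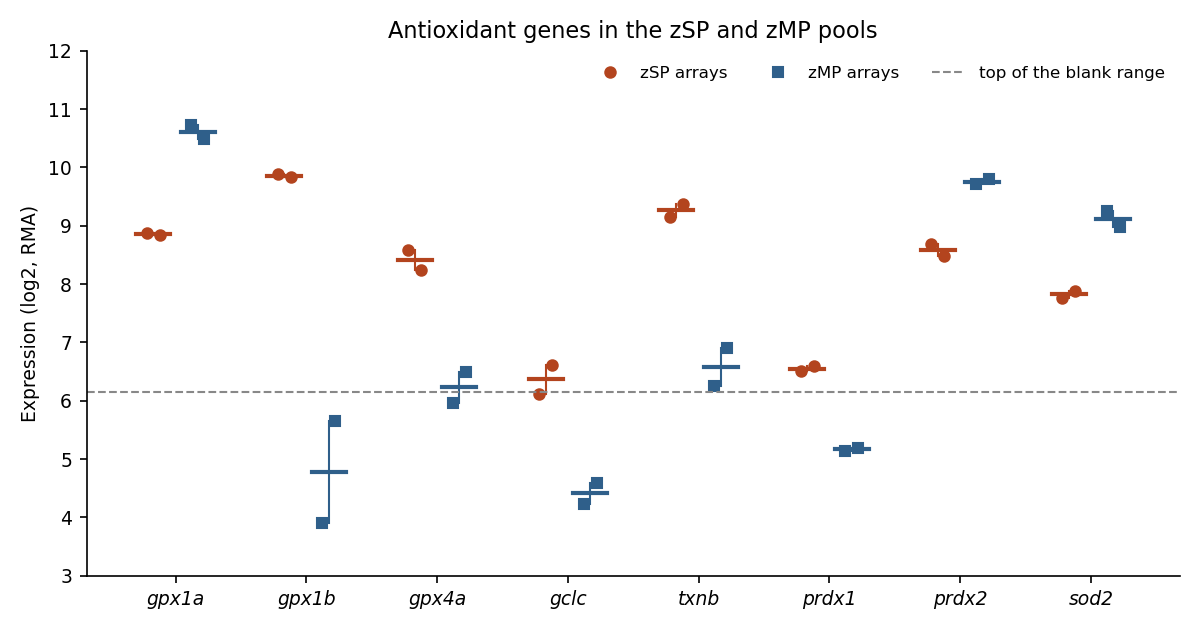
Expression of the 8 genes on each array (log2), with zSP arrays as circles and zMP arrays as squares, horizontal bars for the mean of each pool and the dashed line at the top of the blank range, 6.15. Within each gene the 2 pools do not overlap, and the zMP arrays of gpx1b stand furthest apart from each other. The probe sets of different genes differ in brightness, so heights are comparable within a gene and not between genes.

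Cells in the 2 pools differed in more than these genes. Of 20 kidney epithelium markers measured, 16, or 80.0%, were called higher in zSP, beside 7.85% of all genes. The median level of the 20 was 7.84 and 7.76 on the zSP arrays, against 3.95 and 3.81 on the zMP arrays. Of 13 stroma markers, 8, or 61.5%, were called higher in zSP. The median levels of the 13 were 6.80 and 6.36 on the zSP arrays and 4.34 and 4.43 on the zMP arrays. All 13 leukocyte markers had a difference below 0, beside 61.0% of all genes, and 4 were called higher in zMP, beside 2.89% of all genes. The median levels of the 13 were 8.35 and 8.86 in zSP and 9.55 and 9.51 in zMP. The differences of spi1b, -0.01, and ptpn6, -0.17, were no lower than the median of all genes, -0.20. Means above the blank range were found for 13, 8 and 12 genes of these lists in zSP, and for 2, 1 and 12 in zMP. Other blood lists were mixed: 4 of 11 myeloid and 3 of 6 thrombocyte markers were called, all towards zSP, beside 7.85% of all genes. The median differences of these 2 lists were 0.76 and 1.40. Of the myeloid markers, 8 had a difference above 0, led by mmp9 at 5.25, and 3 below 0, among them lyz at -0.40. The 3 are 27.3% of the list, beside 61.0% of all genes below 0. The called thrombocyte genes were fn1b, thbs1b and f13a1a.1, and thbs1b and f13a1a.1 did not pass the blank range in either pool. Not called were itga2b at 0.17, selp at 0.24 and gp1bb at -0.19. The GAPDH control read higher at its 3′ than at its 5′ end by 3.94 in zSP and by 3.09 in zMP, and 48 of the 49 blank controls were lower in zSP, with a median difference of -0.38. The part of these shifts in the differences below was not tested.

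The glutathione peroxidases split between paralogues. The genes gpx1a and gpx1b are both zebrafish counterparts of mammalian GPX1, the selenium-containing enzyme that reduces hydrogen peroxide in the cytosol and mitochondria. The probe set of gpx1b read 9.88 and 9.84 on the zSP arrays and 3.89 and 5.65 on the zMP arrays. It was thus bright and steady in zSP, and within the blank range on both zMP arrays, which differed from each other by 1.76.

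The difference of gpx1b was 5.09 (4.18 to 5.99), or 34.0-fold, and it ranked 31 among the 8793 genes towards zSP. Because the zMP mean of 4.77 lay within the blank range, the fold rests on background fluorescence. Set against the top of that range, the zSP mean was 13.1-fold higher. Without zMP replicate 1 the difference was 4.21, and without zMP replicate 2 it was 5.96, both called.

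The paralogue gpx1a went the other way from a high level in both pools. It read 8.87 and 8.83 on the zSP arrays and 10.73 and 10.49 on the zMP arrays. Both pools were far above the blank range, so that its transcript was present in each. The difference was -1.76 (-1.89 to -1.62), a 3.38-fold lower level in zSP, at rank 153 of 8793 towards zMP. The difference of gpx1b minus that of gpx1a was 6.84 (5.84 to 7.84).

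The peroxidase gpx4a belongs to the GPX4 branch, whose mammalian member reduces lipid hydroperoxides within membranes and guards against the iron-dependent cell death called ferroptosis. Its probe set read 8.59 and 8.25 on the zSP arrays and 5.97 and 6.49 on the zMP arrays. The zMP arrays straddled the top of the blank range. The difference was 2.19 (1.76 to 2.62), or 4.56-fold.

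The second gene of that branch, gpx4b, was not called. It read 8.22 and 8.42 in zSP and 9.08 and 9.07 in zMP, a difference of -0.76 (-0.86 to -0.66), with all 4 pairs below 0. The difference of gpx4a minus that of gpx4b was 2.95 (2.41 to 3.49). The remaining peroxidase measured, gpx8, an endoplasmic reticulum relative, did not pass the blank range in either pool with a difference of 0.0021. Of 5 peroxidases measured, 2 were called towards zSP, beside 7.85% of all genes, and 1 towards zMP, beside 2.89% of all genes. All the called ones are among the 8 genes, so this count restates their choice.

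**Figure D2:**
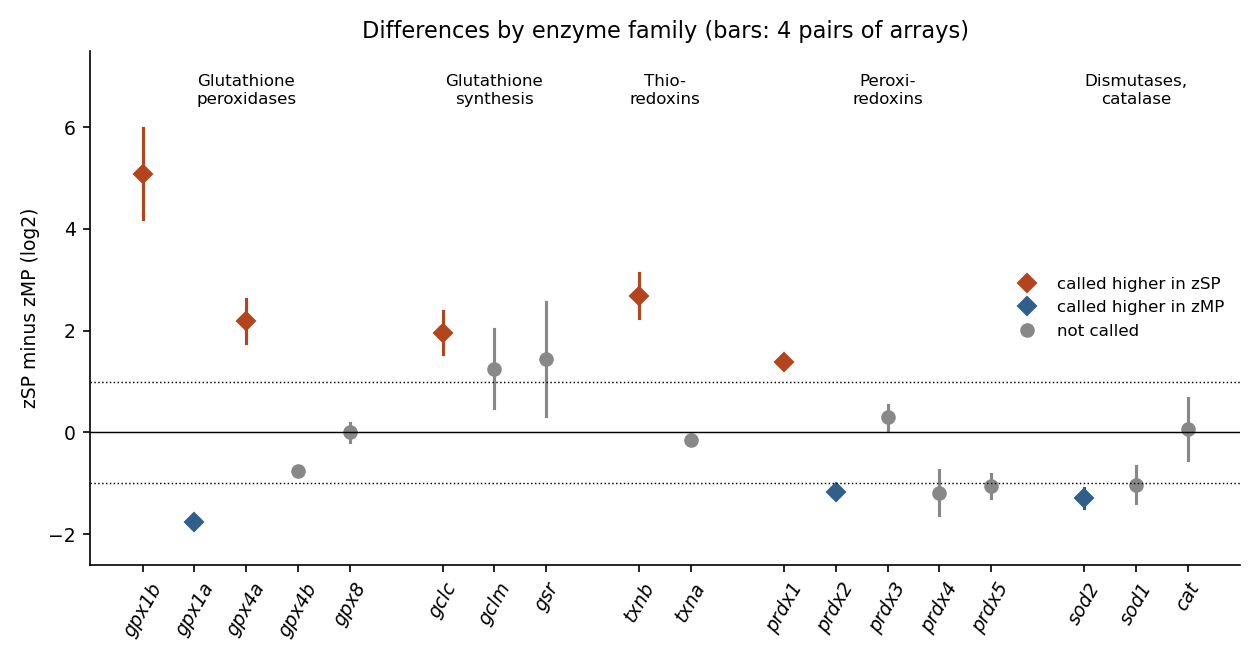
Differences (zSP minus zMP, log2) of the 8 genes, as diamonds, and of 10 relatives from 5 enzyme groups that were not called, as circles, with bars for the range over the 4 pairs of arrays. Dotted lines mark 1 and -1. Among the genes drawn, peroxidases and peroxiredoxins were called in both directions, from 5.09 for gpx1b to -1.76 for gpx1a and from 1.39 for prdx1 to -1.17 for prdx2.

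Glutathione itself is made in a pair of steps, and the first and rate-limiting one is run by glutamate-cysteine ligase, whose catalytic subunit gclc encodes. The gclc probe set read 6.12 and 6.61 on the zSP arrays and 4.23 and 4.58 on the zMP arrays. The pools did not overlap, but the levels were low: the zSP mean, 6.37, barely passed the blank range and the zMP mean, 4.41, stayed within it. The difference was 1.96 (1.54 to 2.38), or 3.88-fold, of which 1.16-fold lay above the top of the blank range.

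The partners of gclc pointed the same way without being called. The modifier subunit of the ligase, gclm, differed by 1.25 (0.48 to 2.02), and glutathione reductase, gsr, which returns oxidised glutathione to its reduced form, by 1.44 (0.33 to 2.55). The zMP means of gclm and gsr, 6.36 and 6.43, were only slightly above the top of the blank range, 6.15. In gsr the lower zSP array, 7.53, was only slightly above the higher zMP array, 7.20. The call of each depended on single arrays: gclm was called without zSP replicate 1 at 1.69 and without zMP replicate 2 at 1.58, and gsr without zSP replicate 2 at 1.79 and without zMP replicate 1 at 2.21. Without zMP replicate 2 the difference of gsr was 0.67, and without zSP replicate 2 that of gclm was 0.81.

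In the whole list of glutathione synthesis and salvage, 2 of 8 measured genes were called, both higher in zSP, and the median was 0.87 (0.44 to 0.92). The share called was 25.0%, beside 7.85% of all genes called towards zSP. The list holds gclc, which was chosen with its difference known and is 1 of the 2. The other called gene was slc3a2a, which encodes the heavy chain that carries amino acid transporters, the cystine importer among them, to the cell surface. It differed by 3.33 (2.81 to 3.86), with zSP and zMP means of 5.93 and 2.59 that both lay within the blank range. Its paralogue slc3a2b, with means of 8.36 in zSP and 8.48 in zMP, differed by -0.12.

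Thioredoxin is the small protein that hands electrons to peroxiredoxins. The probe set of txnb read 9.15 and 9.38 on the zSP arrays and 6.25 and 6.90 on the zMP arrays, all above the blank range. The zMP mean passed the top of that range by only 0.42, so the fold below rests on a zMP level near background. The zSP arrays stood clear of the zMP arrays, with a difference of 2.69 (2.25 to 3.13), or 6.45-fold, at rank 261 towards zSP.

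The related thioredoxin gene txna was bright and level in both pools, at 11.93 and 12.01 in zSP and 12.15 and 12.09 in zMP. Its difference was -0.15 (-0.23 to -0.08), and the difference of txnb minus that of txna was 2.84 (2.41 to 3.27). Thioredoxin reductase, which recharges thioredoxin, was represented by txnrd3 with 0.46 (0.24 to 0.67). Of 16 thioredoxin, glutaredoxin and reductase genes, 12.5% were called, beside 10.7% of all genes. The gene txnb, chosen with its difference known, was called higher in zSP and 1 was called higher in zMP. That gene was tmx1, a thioredoxin-like membrane protein of the endoplasmic reticulum, at -1.41 (-1.45 to -1.36). The list median was -0.10, near the -0.20 of all genes.

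Peroxiredoxins reduce peroxide with a reactive cysteine. The cytosolic prdx1 was represented by its brightest probe set, which read 6.50 and 6.60 on the zSP arrays and 5.13 and 5.20 on the zMP arrays. Replicate 1 minus replicate 2 was -0.097 in zSP and -0.066 in zMP, and the difference between the pools was 1.39 (1.30 to 1.47), or 2.61-fold. The zSP mean, 6.55, passed the top of the blank range by only 0.40, and the zMP mean, 5.16, lay within it. Of the 2.61-fold, 1.32-fold lay above the top of that range.

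The 3 probe sets of prdx1 differed in size and not in direction. The second was called at 1.51 (1.11 to 1.90), and the third was not called at 0.40 (0.13 to 0.68). In each of these probe sets the means of both pools lay within the blank range. With the 3 averaged, the difference of prdx1 was 1.099 and the call ended.

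The cytosolic prdx2, which in mammals is one of the most abundant proteins of red blood cells, went the other way. It read 8.69 and 8.48 on the zSP arrays and 9.71 and 9.80 on the zMP arrays. Both pools were well above the blank range and did not overlap, with a difference of -1.17 (-1.32 to -1.03), a 2.25-fold lower level in zSP. The pair closest together differed by 1.03, barely past the size that counts as called, and the call ended at -1.098 with the arrays centred on their medians and at -0.92 after cyclic loess.

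Red cell markers stood beside it as follows. Of 14 erythroid markers, 10 had a difference below 0, or 71.4%, beside 61.0% of all genes. The adult globin hbaa1 was the one called, higher in zMP at -4.24 (-4.52 to -3.97), and the one with a mean above the blank range. That call is 7.14% of the list, beside 2.89% of all genes called towards zMP. The heme synthesis gene alas2 and the red cell anion exchanger slc4a1a did not pass the blank range in either pool. The part of red cells in the prdx2 difference was not tested.

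Other peroxiredoxins were not called. The endoplasmic reticulum enzyme prdx4 differed by -1.18 (-1.62 to -0.75) and prdx5, found in mitochondria and peroxisomes, by -1.05 (-1.28 to -0.82), and in both every zSP array was below every zMP array. Without zMP replicate 2 prdx4 was called at -1.50, and without zSP replicate 1 prdx5 was called at -1.20. The mitochondrial prdx3 differed by 0.29 (0.04 to 0.54). The difference of prdx1 exceeded that of prdx2 by 2.56 (2.40 to 2.72), that of prdx4 by 2.57 (2.15 to 2.99), that of prdx5 by 2.44 (2.19 to 2.69) and that of prdx3 by 1.09 (0.87 to 1.31). In each of these contrasts the prdx1 levels were near or within the blank range.

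Superoxide dismutase of the mitochondrial matrix, the manganese enzyme, is encoded by sod2. It read 7.76 and 7.88 on the zSP arrays and 9.25 and 8.97 on the zMP arrays. Both pools were above the blank range and did not overlap. The difference was -1.29 (-1.49 to -1.09), a 2.44-fold lower level in zSP, and the call ended at -1.103 after cyclic loess.

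The cytosolic copper-zinc enzyme sod1 had a difference of -1.02 (-1.40 to -0.65) and was not called, with 7.23 and 7.60 in zSP and 8.25 and 8.62 in zMP. Under the looser rule with 1 array left out, it was called at -1.21 without zSP replicate 2 and at -1.21 without zMP replicate 1. Catalase, cat, did not pass the blank range in either pool, at 0.06 (-0.55 to 0.67).

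The transcription factor Nrf2 controls many of these genes in vertebrates, and Keap1 holds it in check. The zebrafish gene nfe2l2a read 7.39 and 7.42 in zSP and 6.10 and 6.44 in zMP, with every zSP array above every zMP array. Its zMP mean, 6.27, was only slightly above the top of the blank range, 6.15. Its difference was 1.13 (0.94 to 1.32), and 2 of the 4 pairs fell short of the size that counts as called. With its 2 probe sets averaged the difference was 0.59, and after quantile normalization it was 0.92. It was called at 1.31 without zMP replicate 2, and at 1.21 both with the arrays centred on their medians and after cyclic loess. Its inhibitor keap1a did not pass the blank range in either pool, at 0.05 (-0.42 to 0.52).

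Of 6 genes measured in the list of Nrf2 and Keap1 regulators, 2 were called, both higher in zSP, and the median was 0.59 (0.43 to 0.75). The share called was 33.3%, beside 7.85% of all genes called towards zSP. The small Maf protein gene maff, a possible partner of Nrf2 on DNA and also a stress-induced gene, differed by 3.29 (3.17 to 3.41). The autophagy receptor sqstm1, which in mammals binds Keap1, differed by 1.98 (1.44 to 2.52). Both had zMP means within the blank range, 3.09 and 5.43. The zSP mean of maff, 6.38, barely passed the top of that range, 6.15, and that of sqstm1 was 7.40. Of 12 other Nrf2 targets and iron and heme genes, none was called in either direction, beside 10.7% of all genes. The largest differences were 1.01 (-0.21 to 2.23) for the carbonyl reductase relative cbr1l and 0.70 (0.47 to 0.93) for the biliverdin reductase blvrb. The difference of cbr1l rested on 1 array: it was called at 1.97 without zSP replicate 1 and was 0.046 without zSP replicate 2. The ferritin gene fth1a was bright and level at 12.95 in zSP and 12.86 in zMP, and the quinone reductase nqo1 did not pass the blank range in either pool.

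NADPH pays for the recycling of glutathione and thioredoxin. Of 10 NADPH-supplying genes, 1 was called towards zSP and 2 towards zMP, and the median was -0.38. Together these calls made up 30.0% of the list, beside 10.7% of all genes. The cytosolic isocitrate dehydrogenase idh1 differed by 3.26 (2.56 to 3.95) from a zMP mean within the blank range, 4.33. Its mitochondrial counterpart idh2, with 8.67 and 8.25 in zSP and 10.32 and 10.13 in zMP, differed by -1.76 (-2.07 to -1.45).

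The difference of idh1 minus that of idh2 was 5.02 (4.22 to 5.82). The mitochondrial transhydrogenase nnt differed by -2.01 (-2.55 to -1.46), neither pool rising above the blank range, and by -1.27 with its 2 probe sets averaged. The pentose phosphate enzyme pgd differed by 1.53 over a wide range (0.33 to 2.73) and was not called.

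Among 20 measured genes for selenium handling and other selenoproteins, 5.0% were called towards zSP, beside 7.85% of all genes, and none towards zMP. The one called was selenop. It encodes the plasma selenium carrier and was higher in zSP by 3.04 (2.64 to 3.43), with 7.83 and 8.48 in zSP and 5.19 and 5.04 in zMP, both zMP values lying within the blank range. Over the list the median was -0.44. The genes fth1a, nqo1, pgd, slc3a2b, txna, txnrd3 and gpx8 were picked after their values were seen, as were the marker genes named.

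In the smaller lists, the glutathione transferase gstm.1 was the 1 of 11 transferases called, higher in zMP at -2.05 (-2.52 to -1.58). The methylglyoxal-detoxifying glo1 was the 1 of 8 sulfoxide reductase and deglycase genes called, higher in zMP at -1.51 (-1.81 to -1.21), with a zSP mean of 4.80 within the blank range. Of 4 NADPH oxidase genes, the subunit ncf4, within the blank range in both pools, was called higher in zMP at -1.33 (-1.45 to -1.21), and the call ended at -1.07 after cyclic loess. The GTPase rac1a, which also steers the actin cytoskeleton, was called higher in zSP at 4.10 (3.18 to 5.02), against a zMP mean of 3.51 within the blank range. The share called towards zMP was 9.09% of the transferases and 12.5% of the sulfoxide reductases and deglycases, beside 2.89% of all genes. Of the 4 oxidase genes 50.0% were called in either direction, beside 10.7% of all genes.

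**Figure D3:**
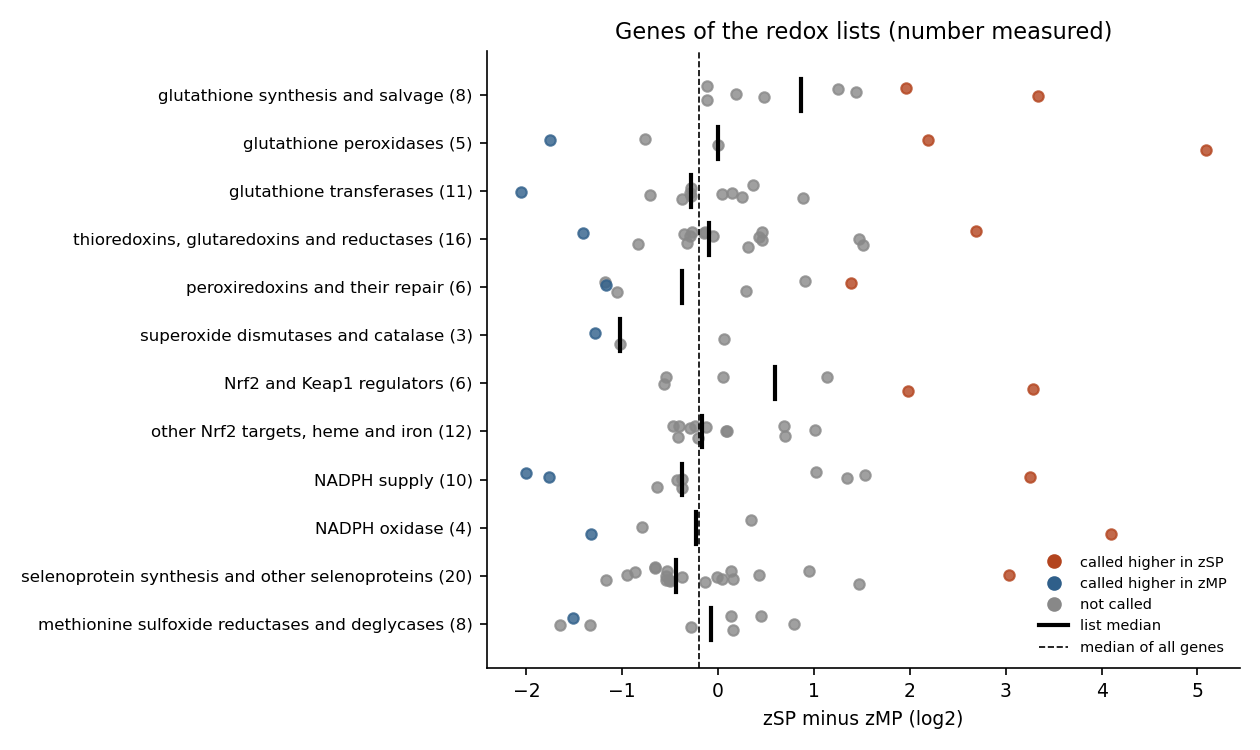
Differences (zSP minus zMP, log2) of every measured gene in 12 redox lists, coloured by call, with a thick bar at each list's median and a dashed line at the median of all genes, -0.20. The lists of glutathione synthesis and of Nrf2 regulators have medians of 0.87 and 0.59, that of dismutases and catalase -1.02, and the other 9 lie between -0.44 and 0.0021. The lists include the 8 genes, which were chosen with earlier results known. Over all genes, 7.85% were called towards zSP and 2.89% towards zMP.

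Over all 12 lists, 99 genes other than the 8 were measured. Towards each pool 6 of them were called, an even split, beside 7.85% of all genes towards zSP and 2.89% towards zMP. Together these were 12.1%, beside 10.7% of all genes, and the median of the 99 was -0.14 beside -0.20. In 57 of them at least 1 pool passed the blank range. Of these, 5 were called towards zSP and 4 towards zMP, beside 16.9% and 6.57% of all genes so filtered. Together they were 15.8%, against 23.5% of all genes so filtered. All 8 named antioxidant genes passed that filter, a filter that favours large differences.

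The genes whose 4 array values, each centred on its own mean, lay nearest to those of gpx1b were ccn1, a secreted matrix-associated protein, at a distance of 0.32, f11r.1, a junctional adhesion molecule, at 0.53 and oclna, an occludin, at 0.65. Their differences were 5.17, 4.69 and 4.51. The distance includes the gap between the zMP arrays of gpx1b, so genes chosen by it tend to share that gap. Each did, with zMP replicate 2 the higher. Nearest to gpx1a were rpl22l1, a ribosomal protein relative, at 0.11, tmem237b, a membrane protein, at 0.12 and hint1, a nucleotide-binding hydrolase, at 0.12, with differences of -1.76, -1.70 and -1.76. The means of tmem237b, 3.99 in zSP and 5.69 in zMP, both lay within the blank range. The likeness covers 4 arrays of 2 pools and mainly measures the size of the difference between pools.

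**Figure D4:**
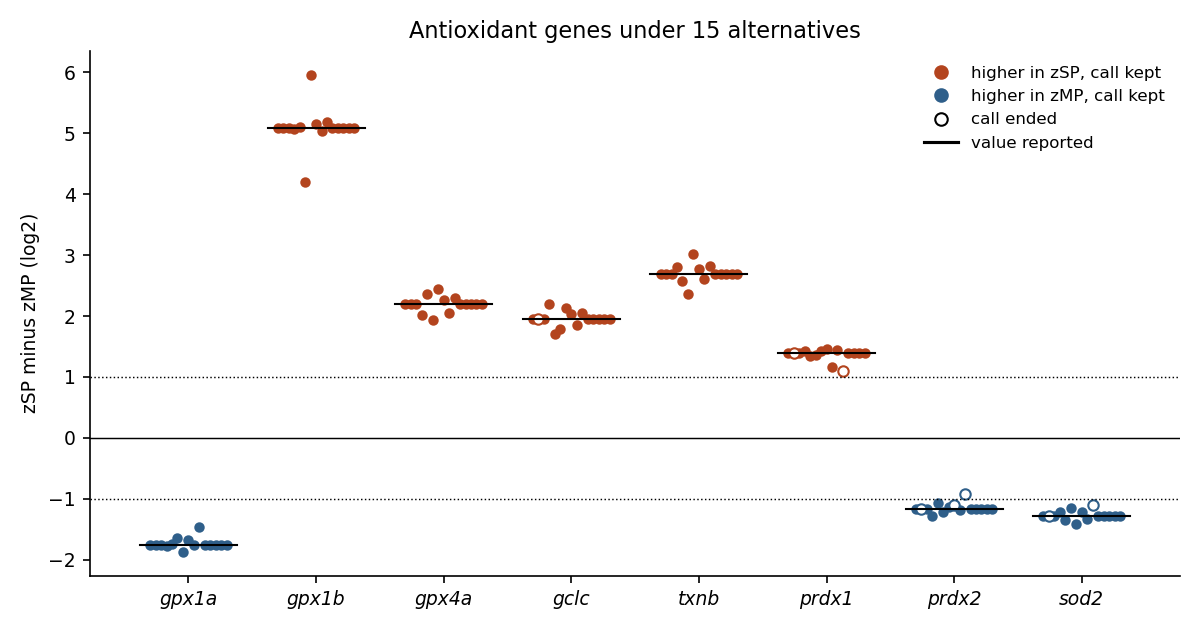
Differences (zSP minus zMP, log2) of the 8 genes under 15 alternative settings, with filled circles where the call was kept, open circles where it ended and black lines at the values reported. No gene changed sign, and open circles occur for gclc, prdx1, prdx2 and sod2. Settings that only loosen the rule or leave the values unchanged could not end a call.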

How the data were processed

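The deposited table holds log2 values of 15617 probe sets on a zebrafish Affymetrix array. Per the submitters' processing notes, the authors used RMA and affy to make them, from RNA amplified in 2 rounds of in vitro transcription per the labels' protocols. Sources used here give neither versions nor settings. RMA corrects background, equalizes arrays and summarises probes. The values carry no detection calls. The 115 control probe sets were set aside. Of the other 15502 probe sets, 10795 carried 1 gene and were used, with symbols updated by gene identifier in the GRCz12tu gene table. All 8 genes kept their symbol. The probe set with the highest mean stood for a gene.

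The arrays of a population share 1 RNA pool, so a rule of size replaced any test, and the number of arrays, 2 per pool, limits the precision. Pearson's r between the arrays of a pool was 0.943 for zSP and 0.952 for zMP across probe sets, which are not independent replicates. The genes and lists were chosen with earlier results of these data known. The text names the 8 genes, fixed relatives and regulators where measured, from each list up to 4 called genes with the largest difference (2 where none was called), and the 3 genes nearest in profile to the largest difference each way. The relatives gss, prdx6, txn2, srxn1 and keap1b were not measured by a probe set of their own. A motif search in promoters was not run. The calling code was tested on simulated data. Settings varied were the size of a call, a call on group means alone, leaving out an array, centring on medians, quantile normalization, cyclic loess (limma 3.58.1 in R 4.3.3), probe sets averaged or without shared sequences, filters on the blank range, and same-numbered pairs alone. The rest ran in Python 3.11.15.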

Additional observations from a re-analysis of the deposited data

How the results depend on the processing

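Over the 15 alternatives no difference of the 8 genes changed sign, and 112 of 120 results kept their call. Most of these results were fixed in advance. A size of 1.5-fold, means alone, an array left out and same-numbered pairs only loosen a rule already passed. The filters on the blank range and on shared sequences left the values of the 8 genes unchanged. Calls ended at 3-fold, with median centring, after cyclic loess and with probe sets averaged. The calls of gpx1a, gpx1b, gpx4a and txnb were kept throughout, while at 3-fold those of gclc, prdx1, prdx2 and sod2 ended by construction, leaving 3 genes called towards zSP and 1 towards zMP. After cyclic loess, which raised the median of all genes by 0.21, 1 of the 8 genes was called higher in zMP, gpx1a at -1.46. Under that setting 1.88% of all genes were called towards zMP. The cause of the ended calls was not tested. The difference of prdx1 minus that of prdx2 was 2.35 after quantile normalization, 2.37 after cyclic loess and 2.27 with probe sets averaged. The median over the 8 genes moved by less than 1 SD of its pairs in every setting. Among the 99 other redox genes, those called towards zSP and zMP numbered 11 and 14 at 1.5-fold (11.6% and 9.66% of all genes), 16 and 12 by the difference of means alone (14.2% and 9.22% of all genes), and 5 and 0 at 3-fold (4.5% and 0.694% of all genes). With 1 array left out, where only 2 pairs need to pass, 9 to 13 were called towards zSP and 8 to 9 towards zMP, beside 11.1% to 12.4% and 6.05% to 6.7% of all genes. In the paired reading (replicate block), which rests on same-numbered arrays alone, 10 were called towards zSP and 9 towards zMP, beside 9.23% and 4.08% of all genes. This looser rule could not end a call of the 8 genes. The aliquot differences of the pools had r = -0.011 across probe sets, so no shared pattern by number was seen over all of them. Whether same-numbered arrays were handled together cannot be told from this value. The filter without the EGFP control, whose top was 5.24, was added after seeing the data. No biological repeat stands behind any value.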
